A study of Mus musculus with 18 samples.

Results

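The genes described here are 10 members of the mouse p53 pathway, chosen by symbol: Trp53, Mdm2, Ccng1, Cdkn1a, Btg2, Plk2, Sesn1, Zmat3, Trp53inp1 and Phlda3. Each was found in the deposited tables of 55487 genes, and 8 of the 10 had enough reads to be among the 15996 genes tested. They were measured by RNA sequencing in BV2 cells, an immortalised mouse microglial line, in 6 groups of 3 libraries. The KD groups carry the label BAK1-KD and the NC groups the label NC. Bak1 encodes a pore-forming protein of the Bcl2 family, and the study is about its part in microglia after subarachnoid hemorrhage. Each line was sampled untreated (control, labelled 0 h), after 12 h and after 24 h of oxyhemoglobin at a labelled dose of 10 mM. No untreated group was labelled 12 h or 24 h. Changes after oxyhemoglobin below therefore cannot be told apart from changes with time in culture. Oxyhemoglobin, the oxygen-carrying form set free when red cells lyse, stands in culture for blood around the brain. The sources used here do not tell how the KD line was made or whether it is 1 clone. Whether each library of a group was grown as its own culture is also unstated, so the p-values reflect the spread between libraries, which may be technical.

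p53, the protein of Trp53, is a transcription factor that is held at a low level by the ubiquitin ligase Mdm2 and stabilised when DNA or other stress signals block that ligase. It then raises transcription of genes that stop the cell cycle, limit oxidative damage, repair DNA or start apoptosis, and of Mdm2 itself, which closes a negative feedback loop. Because p53 is regulated mainly as a protein, the level of Trp53 RNA is a poor guide to its activity, and several of its targets, Btg2 and Plk2 among them, are also immediate early genes that growth factors and calcium or cAMP signals switch on without p53.

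Coordinates are GRCm38 with GENCODE M21 genes. Library totals ran from 4361313 to 6008810 counts, and levels are given as CPM, counts relative to the TMM-scaled library total. The second principal component of log2 CPM (14.7% of the variance) was highest in the library numbered 2 in each of the 6 groups, so results that change without those 6 libraries are marked. A single transcript, CT010467.2, took 12.9 to 25.3% of counts, and leaving it out moved no count of members called. Markers of microglia and macrophages were all detected, 11 of 11, with summed levels of 385 to 737 CPM over the libraries. Single markers differed widely in level. In NC cells at 12 h, Spi1 averaged 354 CPM, Ptprc 104 CPM and Adgre1 51.7 CPM. Csf1r, Itgam, Cd68 and Tmem119 averaged 6.48 to 8.76 CPM there, Tyrobp 1.60 CPM and Cx3cr1 0.860 CPM. Aif1 and P2ry12 had too few reads to be tested. Sums of markers of neurons, astrocytes, oligodendrocytes, fibroblasts and endothelium, or erythroid cells did not exceed 13.6 CPM, and the 4 hemoglobin genes listed had no counts. The targeted gene could not check the labels at this depth, since Bak1 had 1 to 12 counts per library labelled BAK1-KD and 0 to 7 per library labelled NC. Bak1 was thus not lower in the libraries labelled BAK1-KD, and every difference between lines below follows the labels alone. In bulk RNA, a change in the number of cells that express a gene cannot be told apart from a change in RNA per cell.

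The sequences just upstream of the members' start sites show which of them hold a match to a p53 half-site or to another response element in this window. RefSeq promoters (GRCm38.p6) were at hand for 8 of the 10 members, 10 start sites in all, and the 250 bases before each start were searched on both strands. The first pair of promoters, of Plk2 and Btg2, hold the cAMP response element TGACGTCA, which 1.55% of 32851 promoters of the same length hold. It is printed in capitals.
Plk2 (chr13:110394794-110395043, plus strand): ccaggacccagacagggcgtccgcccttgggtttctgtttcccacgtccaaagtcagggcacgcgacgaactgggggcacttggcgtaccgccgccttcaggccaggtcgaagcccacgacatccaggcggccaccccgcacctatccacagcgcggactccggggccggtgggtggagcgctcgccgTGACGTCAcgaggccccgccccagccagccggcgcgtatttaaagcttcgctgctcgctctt
Btg2 (chr1:134079156-134079405, minus strand): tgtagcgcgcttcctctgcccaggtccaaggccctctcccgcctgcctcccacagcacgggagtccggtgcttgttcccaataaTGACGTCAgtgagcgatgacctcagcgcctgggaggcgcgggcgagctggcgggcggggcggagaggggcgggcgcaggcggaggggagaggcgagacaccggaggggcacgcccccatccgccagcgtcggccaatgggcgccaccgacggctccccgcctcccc
The next set, of Mdm2, Ccng1, Trp53 and the first of 2 Cdkn1a start sites, hold a match to the p53 half-site, the 10-base unit of which p53 response elements have a pair. The capitals mark it.
Mdm2 (chr10:117710759-117711008, minus strand): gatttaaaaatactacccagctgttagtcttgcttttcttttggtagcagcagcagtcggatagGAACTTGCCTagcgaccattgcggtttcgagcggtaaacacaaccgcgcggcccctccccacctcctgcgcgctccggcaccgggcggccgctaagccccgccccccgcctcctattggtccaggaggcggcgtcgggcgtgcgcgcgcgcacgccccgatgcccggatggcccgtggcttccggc
Ccng1 (chr11:40755287-40755536, minus strand): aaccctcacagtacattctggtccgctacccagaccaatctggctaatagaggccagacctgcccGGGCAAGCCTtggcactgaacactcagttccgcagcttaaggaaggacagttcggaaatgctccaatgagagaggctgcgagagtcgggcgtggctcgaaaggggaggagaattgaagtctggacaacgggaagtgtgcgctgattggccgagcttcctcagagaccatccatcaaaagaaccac
Trp53 (chr11:69580109-69580358, plus strand): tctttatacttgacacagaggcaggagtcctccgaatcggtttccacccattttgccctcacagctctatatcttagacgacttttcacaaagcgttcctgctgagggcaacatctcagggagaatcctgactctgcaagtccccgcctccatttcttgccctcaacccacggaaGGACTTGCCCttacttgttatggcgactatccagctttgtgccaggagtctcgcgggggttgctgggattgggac
Cdkn1a (chr17:29090729-29090978, plus strand): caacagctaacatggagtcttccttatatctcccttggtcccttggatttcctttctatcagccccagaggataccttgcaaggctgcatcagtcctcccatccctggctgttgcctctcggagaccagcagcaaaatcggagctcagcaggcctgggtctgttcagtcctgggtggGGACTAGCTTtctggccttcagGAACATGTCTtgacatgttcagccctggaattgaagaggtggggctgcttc
A half-site match stood in 7.13% of the 32851 promoters and in 5 of the 10 member promoters. These belong to 5 of the 8 members searched, Sesn1 being the fifth. The Cdkn1a promoter held 2 matches, at 73 to 64 and at 51 to 42 bases before the start. The AP-1 site (TGACTCA or TGAGTCA), the CArG box and the NF-kB site were found in 0 of the 8 members, against 4.46%, 1.47% and 3.9% of all promoters. No motif overlapped another in the promoters printed. These are matches of letters in a short window, and no binding was measured.

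Plk2 (chr13:110395046-110400844, plus strand), a polo-like kinase of the stress response, had the widest range of the members in absolute CPM and rose after oxyhemoglobin in both lines. In the KD line it had 88.4, 102 and 85.1 CPM in control libraries, 494, 435 and 478 CPM at 12 h, and 298, 238 and 270 CPM at 24 h. In the NC line it had 161, 182 and 168 CPM in control libraries, 589, 487 and 608 CPM at 12 h, and 393, 406 and 514 CPM at 24 h. Every treated library was above every control library of its line. At 12 h the log2 fold change against control was 2.35 ± 0.16 in the KD line (SE, adjusted p = 3.3e-10) and 1.72 ± 0.15 in the NC line (adjusted p = 4.6e-08), by the quasi-likelihood test of edgeR, adjusted over all genes tested by Benjamini and Hochberg, as for every adjusted p below. At 24 h it was 1.55 ± 0.15 in the KD line (adjusted p = 2.8e-07) and 1.36 ± 0.15 in the NC line (adjusted p = 2.1e-06). The 12 h level was the peak in both lines. In the KD line Plk2 fell by 0.80 on the log2 scale at 24 h against 12 h (SE 0.15, adjusted p = 0.0018), with no overlap of the libraries. In the NC line the same step was −0.36 ± 0.15 (adjusted p = 0.26), and with the library number as a block it was −0.36 with an adjusted p of 0.0129.

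Plk2 was also the member called between the lines in the fit without a block. Its KD control libraries were all below its NC control libraries, with means of 91.7 and 170 CPM (log2 fold change −0.89 ± 0.15, adjusted p = 0.0016). That call was lost with limma on log2 TPM (−0.80 to −0.83, adjusted p of 0.066 to 0.0907). At 24 h the means were 269 CPM in the KD line and 438 CPM in the NC line, again with no overlap (log2 fold change −0.71 ± 0.15, adjusted p = 0.018). That 24 h call was lost without KD 24 h library 2 or 3, without NC 24 h library 3 (adjusted p up to 0.103), without the 6 libraries numbered 2 (−0.67, adjusted p = 0.0817), with the compared groups only (−0.71, adjusted p = 0.0537) and on log2 TPM (adjusted p up to 0.281). At 12 h the groups overlapped, with means of 469 and 561 CPM in KD and NC cells (log2 fold change −0.26 ± 0.15, adjusted p = 0.50). The 12 h change was 0.63 ± 0.21 larger in KD than in NC cells on the log2 scale. This interaction did not pass in the fit without a block (adjusted p = 0.54, 95% interval 0.19 to 1.07 before adjustment). The 24 h interaction was 0.19 ± 0.21 (adjusted p = 1.00).

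**Figure D1:**
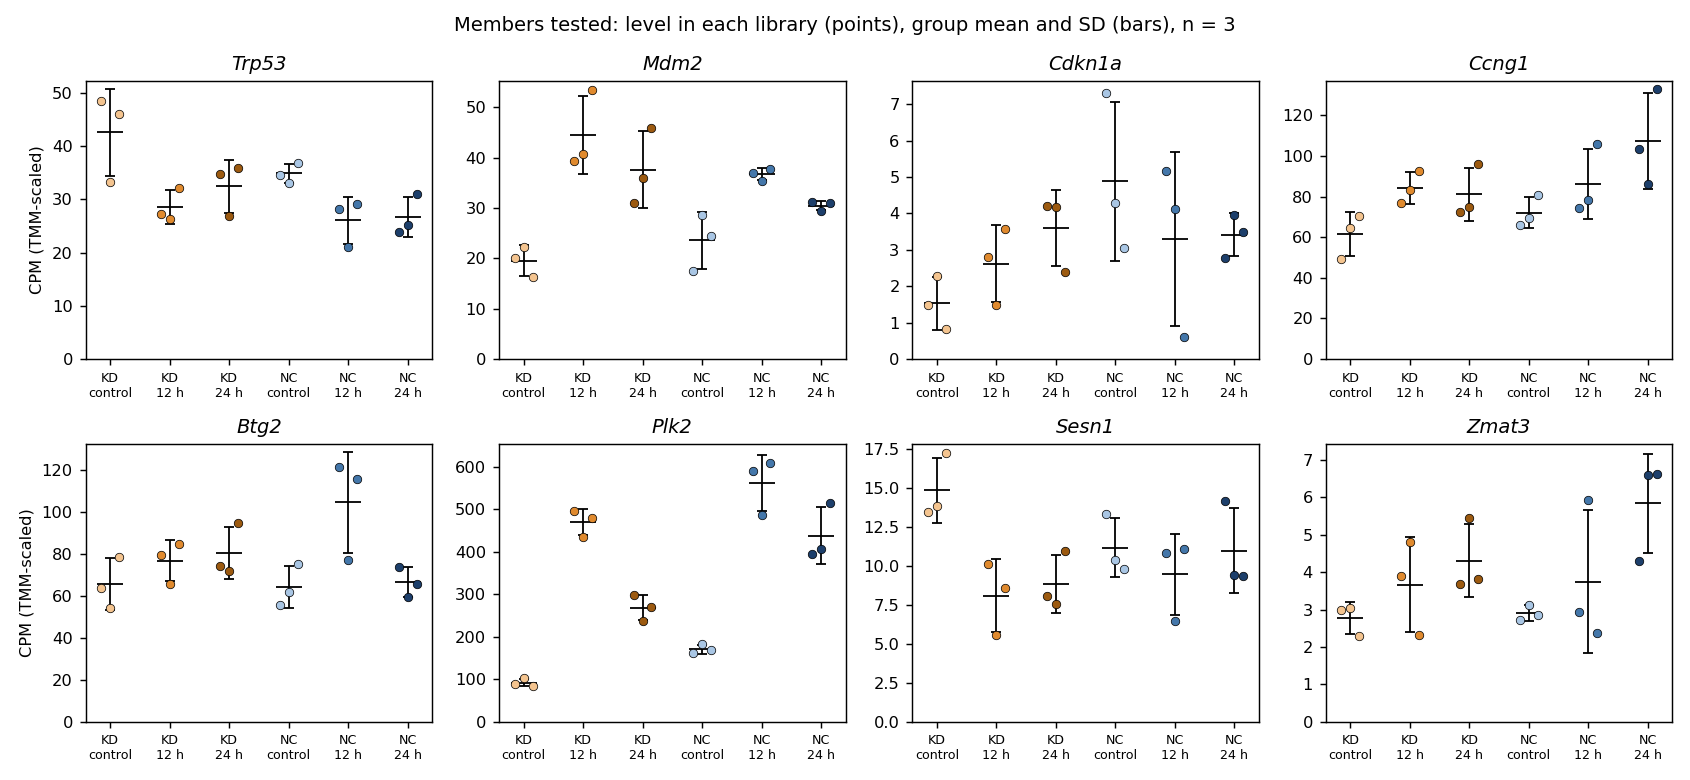
Level of each of the 8 tested members in each of the 18 libraries (points; CPM, TMM-scaled, linear axes starting at 0), with group mean and SD, KD groups on the left and NC groups on the right, each in the order control, 12 h, 24 h. Plk2 and Mdm2 are higher in the treated libraries of both lines, while the 12 h libraries of Trp53 lie below the control libraries of their line.

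Mdm2 (chr10:117688875-117710758, minus strand), the p53 ubiquitin ligase and the negative feedback target, was the other member that rose in both lines at 12 h. In the KD line it had 20.1, 22.3 and 16.2 CPM in control libraries, 39.3, 40.7 and 53.4 CPM at 12 h, and 31.0, 36.0 and 46.0 CPM at 24 h. NC cells had 17.5, 28.7 and 24.5 CPM in control libraries, 36.9, 35.4 and 37.9 CPM at 12 h, and 31.2, 29.4 and 30.9 CPM at 24 h. All treated libraries of each line lay above its control libraries. The KD change was 1.18 ± 0.20 at 12 h (adjusted p = 0.000196) and 0.94 ± 0.20 at 24 h (adjusted p = 0.0033). The NC change was 0.63 ± 0.20 at 12 h (adjusted p = 0.041) and 0.37 ± 0.20 at 24 h (adjusted p = 0.34). The NC call at 12 h rested on a narrow margin, since it was lost in 12 of the 18 fits that left out 1 library (adjusted p up to 0.204), among them each fit without an NC library other than control library 2, and without the libraries numbered 2 (0.80, adjusted p = 0.0517). It was also lost with the compared groups only (0.63, adjusted p = 0.0933), with no filter (0.62, adjusted p = 0.0823) and on log2 TPM (adjusted p up to 0.248), and the KD call at 24 h was lost on log2 TPM (adjusted p up to 0.162). The lines were not shown to differ in this response in the fit without a block: the interaction was 0.55 ± 0.29 at 12 h (adjusted p = 0.95) and 0.57 ± 0.29 at 24 h (adjusted p = 1.00). KD control libraries averaged 19.5 ± 3.05 CPM and NC control libraries 23.6 ± 5.64 CPM (SD, n = 3 each), which did not pass either (−0.27 ± 0.21, adjusted p = 0.68).

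The RNA of Trp53 (chr11:69580359-69591873, plus strand) moved the other way. In the KD line it had 48.5, 33.2 and 46.0 CPM in control libraries, 27.2, 26.3 and 32.2 CPM at 12 h, and 34.7, 26.8 and 36.0 CPM at 24 h. NC cells had 34.6, 33.2 and 36.8 CPM in control libraries, 28.1, 21.02 and 29.1 CPM at 12 h, and 23.8, 25.2 and 30.9 CPM at 24 h. The 12 h libraries lay below the controls in both lines. It fell by 0.57 on the log2 scale in the KD line at 12 h (SE 0.19, adjusted p = 0.044), a call lost without any 1 of 6 libraries, namely KD 12 h libraries 1, 2 and 3, KD control libraries 1 and 3 and NC 12 h library 1 (adjusted p up to 0.189). It was also lost with no filter (adjusted p = 0.0991), with the compared groups only (adjusted p = 0.0758) and on log2 TPM (adjusted p up to 0.212). The NC change at 12 h was −0.42 ± 0.19 (adjusted p = 0.18; with the library number as a block −0.43, adjusted p = 0.022). Averaged over the lines, Trp53 fell by 0.50 at 12 h (SE 0.14, adjusted p = 0.0088), a call that no left-out library ended but limma on unfiltered log2(TPM + 1) did (adjusted p = 0.0532). At 24 h the change was −0.39 ± 0.19 in the KD line (adjusted p = 0.24; with the block −0.38, adjusted p = 0.0431) and −0.38 ± 0.19 in the NC line (adjusted p = 0.29). Averaged over the lines at 24 h, Trp53 was just short of the threshold (adjusted p = 0.053), and it passed with RLE factors (−0.39, adjusted p = 0.0464) and by DESeq2 (−0.39, adjusted p = 0.0411). Trp53-ps, a processed pseudogene on chromosome 17 (54419680 to 54420841), held 3.13 to 27.5 CPM, and reads may be shared between it and Trp53.

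Ccng1 (chr11:40748552-40755311, minus strand), cyclin G1, an atypical cyclin that recruits a phosphatase to Mdm2, passed at 24 h when both lines were averaged, and within lines only with the library number as a block. It had 49.5, 64.8 and 70.3 CPM in KD control libraries, 77.1, 83.4 and 92.7 CPM at 12 h, and 72.3, 74.9 and 96.2 CPM at 24 h. In NC cells it had 65.9, 69.4 and 80.7 CPM in control libraries, 74.5, 78.1 and 106 CPM at 12 h, and 104, 86.1 and 133 CPM at 24 h. The 24 h libraries stood above the controls of their line in both lines, whereas at 12 h this held in the KD line alone. The average change was 0.49 ± 0.14 at 24 h (adjusted p = 0.013; lost without KD 24 h library 3 or NC 24 h library 3, adjusted p up to 0.0631, and on log2 TPM, adjusted p up to 0.209) and 0.36 ± 0.14 at 12 h (adjusted p = 0.056). Within lines the changes were 0.45 ± 0.19 at 12 h and 0.40 ± 0.19 at 24 h in KD cells (adjusted p = 0.12 and 0.23), and 0.26 ± 0.19 and 0.58 ± 0.19 in NC cells (adjusted p = 0.45 and 0.068). With the library number as a block, Ccng1 passed in KD cells at 12 h (0.46, adjusted p = 0.00142) and 24 h (0.39, adjusted p = 0.0085) and in NC cells at 24 h (0.57, adjusted p = 0.000142).

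Cdkn1a (chr17:29090976-29100727, plus strand), which encodes p21, the cyclin-dependent kinase inhibitor through which p53 arrests the cycle, was low in every library. It passed no comparison in the fit without a block. It had 1.49, 2.29 and 0.832 CPM in KD control libraries, 2.81, 1.48 and 3.57 CPM at 12 h, and 4.20, 4.19 and 2.38 CPM at 24 h. In NC cells it had 7.30, 4.29 and 3.06 CPM in control libraries, 5.18, 4.13 and 0.595 CPM at 12 h, and 2.79, 3.95 and 3.50 CPM at 24 h. The 294 counts over 18 libraries leave wide errors. The KD change was 0.71 ± 0.58 at 12 h and 1.18 ± 0.56 at 24 h (adjusted p = 0.49 and 0.22), and the NC change −0.57 ± 0.50 and −0.50 ± 0.50 (adjusted p = 0.56 and 0.67). KD control libraries were all below NC control libraries, with means of 1.54 and 4.89 CPM (log2 fold change −1.61 ± 0.54, adjusted p = 0.16). The 95% interval of that difference was −2.73 to −0.48 before adjustment. The interactions were 1.27 ± 0.77 at 12 h and 1.68 ± 0.75 at 24 h, and neither passed (adjusted p = 0.998 and 1.00). An annotated gene on the opposite strand shares 7.7% of the exon bases of Cdkn1a, and the sources used here do not tell whether counting used strand.

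Btg2 (chr1:134075170-134079120, minus strand), an antiproliferative protein that binds the CCR4-NOT deadenylase, rose in the NC line at 12 h. KD libraries had 63.8, 54.3 and 78.9 CPM in control, 79.7, 66.0 and 84.9 CPM at 12 h, and 74.4, 72.2 and 94.8 CPM at 24 h. NC libraries had 55.7, 62.0 and 75.4 CPM in control, 122, 77.2 and 116 CPM at 12 h, and 74.0, 59.7 and 65.9 CPM at 24 h. The 12 h libraries of the NC line stood above its controls, by little in library 2, and the KD groups overlapped. Averaged over both lines, the 12 h change was 0.47 ± 0.14 (adjusted p = 0.014). The KD change was 0.23 ± 0.19 at 12 h (adjusted p = 0.50) and 0.29 ± 0.19 at 24 h (adjusted p = 0.42). The NC change at 12 h was 0.70 ± 0.19 (adjusted p = 0.017), lost without NC 12 h library 1 or 3 or NC control library 1 or 2 (adjusted p up to 0.0986) and with the compared groups only (0.70, adjusted p = 0.0547). The interaction at 12 h was −0.47 ± 0.27 (adjusted p = 0.99), so a difference between the lines in this change was not shown in the fit without a block. In NC cells Btg2 was −0.66 ± 0.19 at 24 h against 12 h (adjusted p = 0.073), and with the library number as a block −0.64 with an adjusted p of 0.000155. At 12 h, KD against NC was −0.45 ± 0.19 (adjusted p = 0.33), and with the block −0.44 with an adjusted p of 0.012.

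Sesn1 (chr10:41809935-41908424, plus strand), sestrin 1, a stress protein that restrains mTORC1 signalling, fell in the KD line at 12 h. KD libraries had 13.5, 13.9 and 17.3 CPM in control, 10.2, 5.55 and 8.62 CPM at 12 h, and 8.06, 7.53 and 10.96 CPM at 24 h. NC libraries had 13.4, 10.4 and 9.80 CPM in control, 10.8, 6.47 and 11.1 CPM at 12 h, and 14.2, 9.42 and 9.39 CPM at 24 h. The treated KD libraries were all below their controls, while the NC groups overlapped. The KD change was −0.88 ± 0.28 at 12 h (adjusted p = 0.032) and −0.75 ± 0.28 at 24 h (adjusted p = 0.093; with the library number as a block −0.77, adjusted p = 0.0121). The 12 h call was lost without KD 12 h library 2 or 3 or KD control library 1 or 3 (adjusted p up to 0.148), and without the 6 libraries numbered 2 (−0.73, adjusted p = 0.142). The NC change at 12 h was −0.25 ± 0.28 (adjusted p = 0.67), and the interaction was −0.63 ± 0.39 (adjusted p = 0.999). The average of both lines at 12 h was −0.56 ± 0.20 (adjusted p = 0.037), lost without KD 12 h library 2 or 3, KD control library 3, NC 12 h library 2 or NC control library 1 (adjusted p up to 0.0869) and without the libraries numbered 2 (−0.42, adjusted p = 0.196).

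Zmat3 (chr3:32334792-32366014, minus strand), a zinc finger RNA-binding protein that acts in splicing, was a low member that passed at 24 h over both lines. KD libraries had 2.99, 3.05 and 2.29 CPM in control, 3.89, 4.81 and 2.31 CPM at 12 h, and 3.68, 5.44 and 3.81 CPM at 24 h. NC libraries had 2.71, 3.13 and 2.86 CPM in control, 2.93, 5.93 and 2.38 CPM at 12 h, and 4.31, 6.59 and 6.63 CPM at 24 h. At 24 h every library stood above the controls of its line, and at 12 h the groups overlapped in both lines. The averaged change at 24 h was 0.82 ± 0.27 (adjusted p = 0.035). It did not pass in 10 of the 18 fits that left out 1 library, those without any 1 of the 12 control or 24 h libraries other than KD 24 h library 1 and NC 24 h library 1 (adjusted p up to 0.113), nor without the libraries numbered 2 (0.73, adjusted p = 0.153), with no filter (adjusted p = 0.0679) or by DESeq2 (adjusted p = 0.0546). Within lines the 24 h change was 0.62 ± 0.38 in KD cells (adjusted p = 0.37) and 1.01 ± 0.37 in NC cells (adjusted p = 0.11; with the library number as a block 1.03, adjusted p = 0.0325).

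Trp53inp1, a p53-induced nuclear protein of autophagy and apoptosis, and Phlda3, a p53 target that restrains Akt at the membrane, could not be tested. Trp53inp1 had 21 counts in all, in 10 of the 18 libraries, with 0 to 6 counts each. Phlda3 had 1 count in all, in KD 12 h library 1. A count of 0 in a library allows up to 3 counts, which is 0.457 to 0.760 CPM over these libraries, for counting error only. Neither gene exceeded 1.13 CPM in any library, and a response that stayed near or below that level could not be tested at this depth.

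Counted over the 10 members, the calls at 12 h against control went in both directions. Those at 24 h were all higher in the main fit, which had no block. They were not all higher in the KD line with the library number as a block. Over both lines at 24 h, Trp53 also passed as lower with RLE factors and by DESeq2. In the KD line at 12 h, 2 members were higher and 2 lower, while 7.93% of all genes tested were called higher and 8.06% lower. In the NC line at 12 h, 3 were higher and 0 lower (all genes, 6.69% and 5.55%). With the library number as a block, 3 were higher and 2 lower in the KD line at 12 h, and 3 higher and 1 lower, Trp53, in the NC line. At 24 h, 2 were higher and 0 lower in the KD line (all genes, 5.5% and 4.09%), and 1 was higher and 0 lower in the NC line (all genes, 4.66% and 2.91%). With the block, 3 were higher and 2 lower, Trp53 and Sesn1, in the KD line at 24 h, and 3 were higher in the NC line. At 24 h against 12 h, 0 were higher and 1 lower in the KD line (all genes, 2.81% and 1.46%). In the NC line 0 were called (all genes, 2.76% in either direction), where edgeR gave 2 at an unadjusted p under 0.05, DESeq2 called 1 and the block 2. Averaged over both lines, 3 were higher and 2 lower at 12 h (all genes, 13% and 12.3%), and 4 higher and 0 lower at 24 h (all genes, 9.99% and 7.76%). At 24 h against 12 h over both lines, 0 were higher and 1 lower (all genes, 5.14% and 3.49%). The median log2 fold change of the 8 tested members was 0.37 at 12 h and 0.42 at 24 h in that average, against 0.00 and −0.01 for all genes tested. All 24 h and 12 h comparisons of a line share its control libraries.

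**Figure D2:**
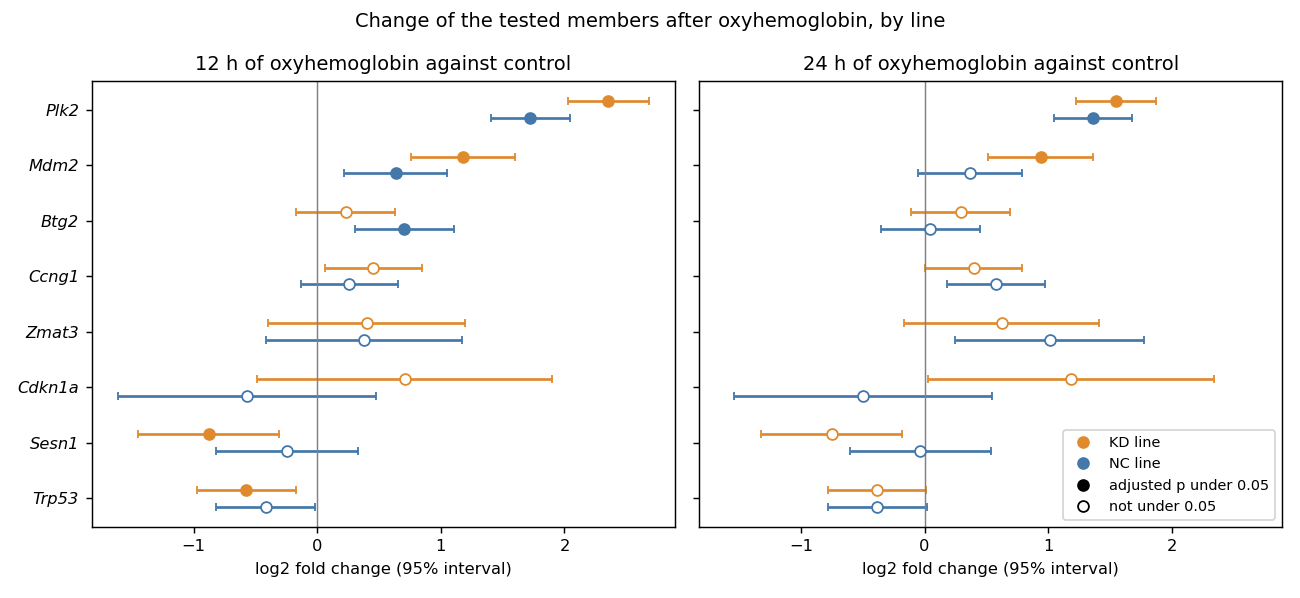
Log2 fold change (x axis) with its 95% interval for the 8 tested members (rows) at 12 h (left panel) and 24 h (right panel) of oxyhemoglobin against control, KD line above NC line; filled points have an adjusted p under 0.05. Plk2 is called in all 4 comparisons and Mdm2 in 3, while the intervals of Cdkn1a span more than those of any other member.

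Between the lines, 1 member passed in the fit without a block. With the library number as a block, more passed at control, at 24 h, over the 3 times and in the 12 h interaction. Plk2 was the 1 member called at control, where 0.763% of all genes were higher and 1.3% lower in KD cells, and at 24 h, where 0.469% were higher and 0.925% lower. It was lower in KD cells both times, and 0 members were called at 12 h (all genes, 1.6% in either direction). At 12 h edgeR gave 1 member at an unadjusted p under 0.05, DESeq2 called 0, and the block called 1, Btg2. Averaged over the 3 times, Plk2 was again the 1 member called (−0.62 ± 0.09, adjusted p = 5.0e-05; all genes, 4.01% higher and 5.98% lower), while Trp53 had 0.23 ± 0.11 (adjusted p = 0.21), Ccng1 −0.22 ± 0.11 (adjusted p = 0.23) and Cdkn1a −0.62 ± 0.31 (adjusted p = 0.23). The interactions of line with time called 0 members at 12 h (all genes, 0.075%) and 0 at 24 h (all genes, 0.0313%), by edgeR and by DESeq2, with 1 member at an unadjusted p under 0.05 in each.

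Set per kilobase of annotated exon, the levels of the members spanned a wide range. The median over the 18 libraries was 76.9 CPM per kb for Plk2, with 19.0 to 135 over libraries, 27.1 for Btg2 (19.8 to 44.3) and 22.1 for Ccng1 (14.1 to 37.8). These were followed by Trp53 at 7.80 (5.20 to 12.0), Mdm2 at 6.11 (3.19 to 10.5) and Sesn1 at 2.58 (1.39 to 4.34). The lowest were Cdkn1a at 0.923 (0.167 to 2.06), Zmat3 at 0.298 (0.200 to 0.580), Trp53inp1 at 0.0285 and Phlda3 at 0 CPM per kb. Over the 18 libraries the ranges of neighbours in this order overlapped, except those of Ccng1 and Trp53 and those of Zmat3 and Trp53inp1 (0 to 0.174). Plk2 stood near Btg2 in KD control libraries (20.4 ± 1.96 and 23.9 ± 4.52, SD, n = 3) but far above it at 12 h (104 ± 6.89 and 28.0 ± 3.56). The exon lengths are from GENCODE M21. The lengths deposited by the authors are longer for 9 of the 10, for example 15165 against 5083 bases for Mdm2, which would lower the per-length levels of those 9 relative to Btg2.

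**Figure D3:**
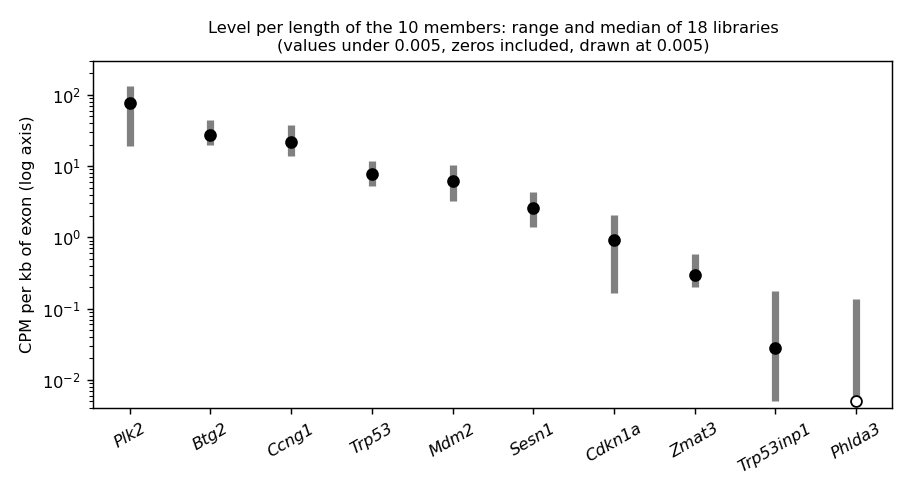
CPM per kilobase of GENCODE M21 exon (log axis) for the 10 members, as the range (bars) and median (points) over all 18 libraries of both lines, with values under 0.005 drawn at 0.005. Plk2 has the highest median, 76.9, with a range of 19.0 to 135, and the bars of Ccng1 and Trp53 do not overlap.

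The members' profiles over the 6 groups were not alike. As a description, the root mean square difference between centred log2 CPM group means was smallest for Ccng1 and Zmat3 (0.15) and for Trp53 and Sesn1 (0.20), and largest for Sesn1 and Plk2 (1.16). Plk2 peaked at 12 h in both lines, Ccng1 and Zmat3 had their highest group mean in NC cells at 24 h, and Trp53 and Sesn1 had theirs in KD control cells.

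Other p53 targets, taken from lists of known targets, followed no single direction. In the average of both lines at 12 h, 2 of the 10 tested targets with roles in the cell cycle and feedback were called higher and 4 lower, while 13% of all genes tested were higher and 12.3% lower. Gadd45a, a growth arrest and DNA repair factor, had 0.85 ± 0.18 (adjusted p = 0.00085), and Ccng2, cyclin G2, −1.42 ± 0.19 (adjusted p = 4.6e-06). Of 10 tested apoptosis targets, 2 were higher and 2 lower, with Siva1 at −0.97 ± 0.21 (adjusted p = 0.0012) and Triap1, an inhibitor of apoptosis, at 0.52 ± 0.15 (adjusted p = 0.0097). Of 15 tested targets of repair and metabolism, 4 were higher and 4 lower. Tigar, which lowers glycolytic flux, had 0.79 ± 0.11 (adjusted p = 1.3e-05), Sesn2, sestrin 2, 0.77 ± 0.15 (adjusted p = 0.00041) and Ddit4, an mTORC1 inhibitor, −0.91 ± 0.16 (adjusted p = 0.00013). At 24 h, where 9.99% of all genes were higher and 7.76% lower, the cell cycle list had 1 higher and 2 lower, the apoptosis list 1 higher and 0 lower, and the repair list 3 higher and 2 lower, with Gadd45a at 1.04 ± 0.18 (adjusted p = 0.00015) and Rrm2b, the p53-induced ribonucleotide reductase subunit, at 0.66 ± 0.13 (adjusted p = 0.00069). Of 13 tested regulators of p53, 2 were higher and 1 lower at 12 h, with Hipk2, a kinase of p53, at 0.43 ± 0.10 (adjusted p = 0.0017).

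Most genes listed as repressed through p21 fell at 12 h. Of the 10 genes repressed through p21 and the DREAM complex, a repressor of mitotic genes, 9 were lower at 12 h in the average of both lines and 0 higher (all genes, 12.3% and 13%), with a median of −1.13 against 0.00 for all genes tested. Ccnb2, cyclin B2, had −1.13 ± 0.14 (adjusted p = 1.2e-06) and Bub1, a mitotic checkpoint kinase, −1.12 ± 0.14 (adjusted p = 1.2e-06). At 24 h 1 of the 10 was lower (all genes, 7.76%), and against 12 h 9 were higher (all genes, 5.14%), Bub1 among them at 1.33 ± 0.14 (adjusted p = 7.3e-07). Cdkn1a itself was at 0.07 ± 0.38 at 12 h in the same average (adjusted p = 0.92). Of the other CDK inhibitors, 3 were tested, and Cdkn2c, p18, fell by 1.77 at 12 h (SE 0.23, adjusted p = 3.5e-06) while Cdkn1b, p27, fell by 0.59 (SE 0.14, adjusted p = 0.003). Of 10 tested cyclins and kinases that p21 holds, 2 were higher and 2 lower at 12 h, and 5 were higher and 1 lower at 24 h (all genes, 13% and 12.3% at 12 h, 9.99% and 7.76% at 24 h), when cyclin E1, Ccne1, was at 0.96 ± 0.13 (adjusted p = 7.1e-06). These lists are of mitotic and replication genes that other regulators also move.

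**Figure D4:**
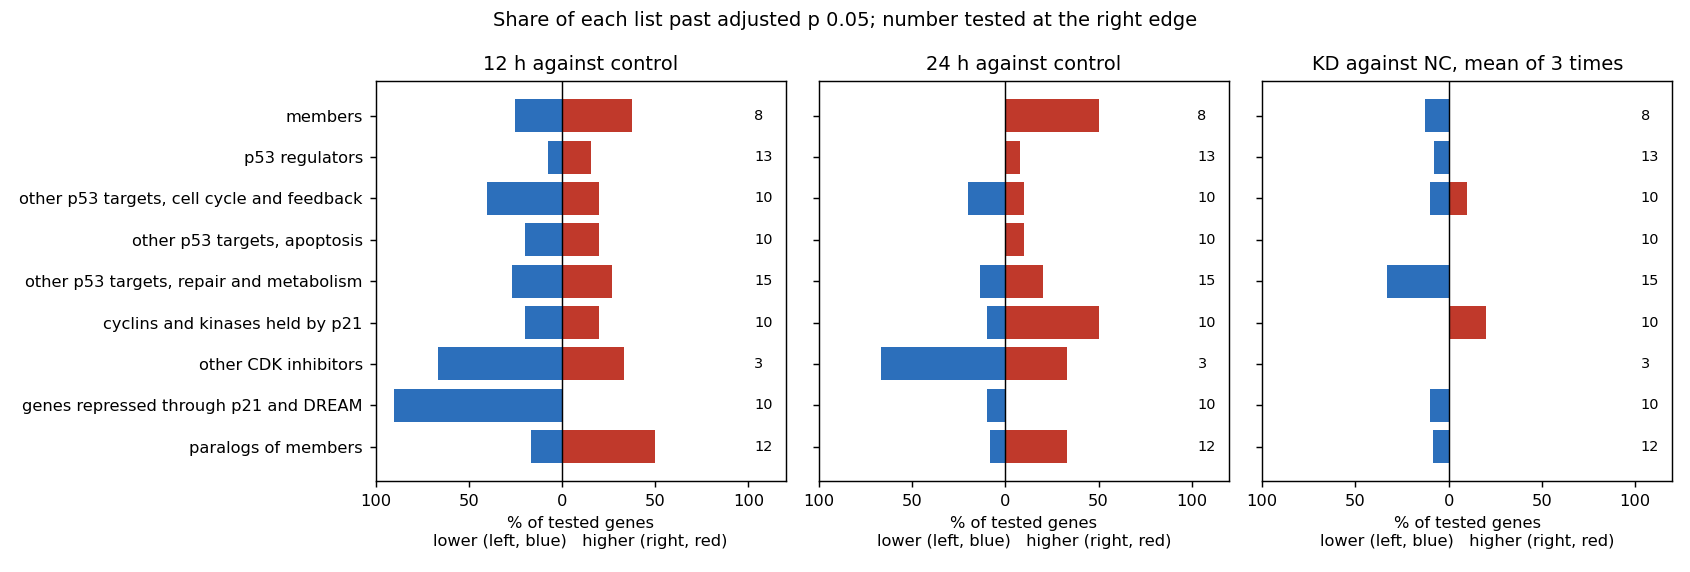
Share of the tested genes of each p53-related list (rows, number tested at the right edge) called higher (right, red) or lower (left, blue) at an adjusted p under 0.05, at 12 h and at 24 h against control over both lines and in KD against NC over the 3 times. Of the 10 genes repressed through p21 and DREAM, 9 are lower at 12 h and 1 at 24 h.

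Between the lines, several other p53 targets were lower in KD cells. Averaged over the 3 times, 5 of the 15 tested targets of repair and metabolism were lower in KD cells and 0 higher (all genes, 5.98% and 4.01%), with a median of −0.13 for the list against −0.01 for all genes tested. Trp53cor1, the p53-induced lincRNA that lies 11796 bases from Cdkn1a on chromosome 17, had 2.14, 1.68 and 3.75 CPM in KD control libraries, 13.4, 12.0 and 6.10 CPM at 12 h, and 7.53, 8.997 and 5.72 CPM at 24 h. In NC cells it had 17.5, 14.02 and 17.0 CPM in control libraries, 11.3, 12.9 and 14.3 CPM at 12 h, and 21.3, 21.8 and 18.2 CPM at 24 h. KD and NC libraries were apart at control and at 24 h and overlapped at 12 h. KD against NC was −2.70 ± 0.32 at control (adjusted p = 1.8e-05), −0.29 ± 0.28 at 12 h (adjusted p = 0.74) and −1.45 ± 0.28 at 24 h (adjusted p = 0.010; lost without KD 24 h library 1 or 3, adjusted p up to 0.0677, and without the libraries numbered 2, −1.55, adjusted p = 0.0631). Annotated genes on the opposite strand share 44.1% of the exon bases of Trp53cor1, so its reads and theirs cannot be told apart without strand.

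Gadd45a, Rrm2b and Ddit4 were likewise lower in KD cells over the 3 times. Gadd45a had 2.35, 2.90 and 2.91 CPM in KD control libraries against 6.26, 8.08 and 7.35 CPM in NC control libraries, and 7.18, 6.70 and 5.72 CPM in KD cells at 24 h against 14.9, 11.7 and 12.2 CPM in NC cells (average over times −0.94 ± 0.14, adjusted p = 0.00011). Rrm2b averaged 27.0 CPM in KD cells and 45.2 CPM in NC cells (−0.74 ± 0.10, adjusted p = 5.5e-05). Ddit4 averaged 118 CPM in KD cells and 234 CPM in NC cells (−0.93 ± 0.13, adjusted p = 4.9e-05). None of these 3 averages was lost when any 1 library was left out. Annotated genes on the opposite strand share 19.1% of the exon bases of Gadd45a and 8.0% of those of Rrm2b. Of the 10 tested targets of the cell cycle and feedback, 1, Psrc1, was higher in KD cells (1.66 ± 0.42, adjusted p = 0.013; without the libraries numbered 2, 2.07 and adjusted p = 0.0738) and 1, Gadd45a, lower, and 0 of the 10 apoptosis targets were called by edgeR's test, with 1 of them, Apaf1, at an unadjusted p under 0.05. The marker sum of microglia moved with the line too, at 548 to 562 CPM in KD control libraries and 385 to 429 CPM in NC control libraries. It also moved with 12 h of oxyhemoglobin, to 626 to 737 CPM in KD cells and 519 to 573 CPM in NC cells. In NC cells at 12 h Spi1 alone averaged 354 CPM, so the sum there was mostly that gene. The sum of 7 neuron markers, 3 of them with no count, was 8.13 to 11.7 CPM in KD cells and 1.98 to 2.70 CPM in NC cells at 12 h. The part of these sums in the changes at 12 h and in the differences between lines was not tested.

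**Figure D5:**
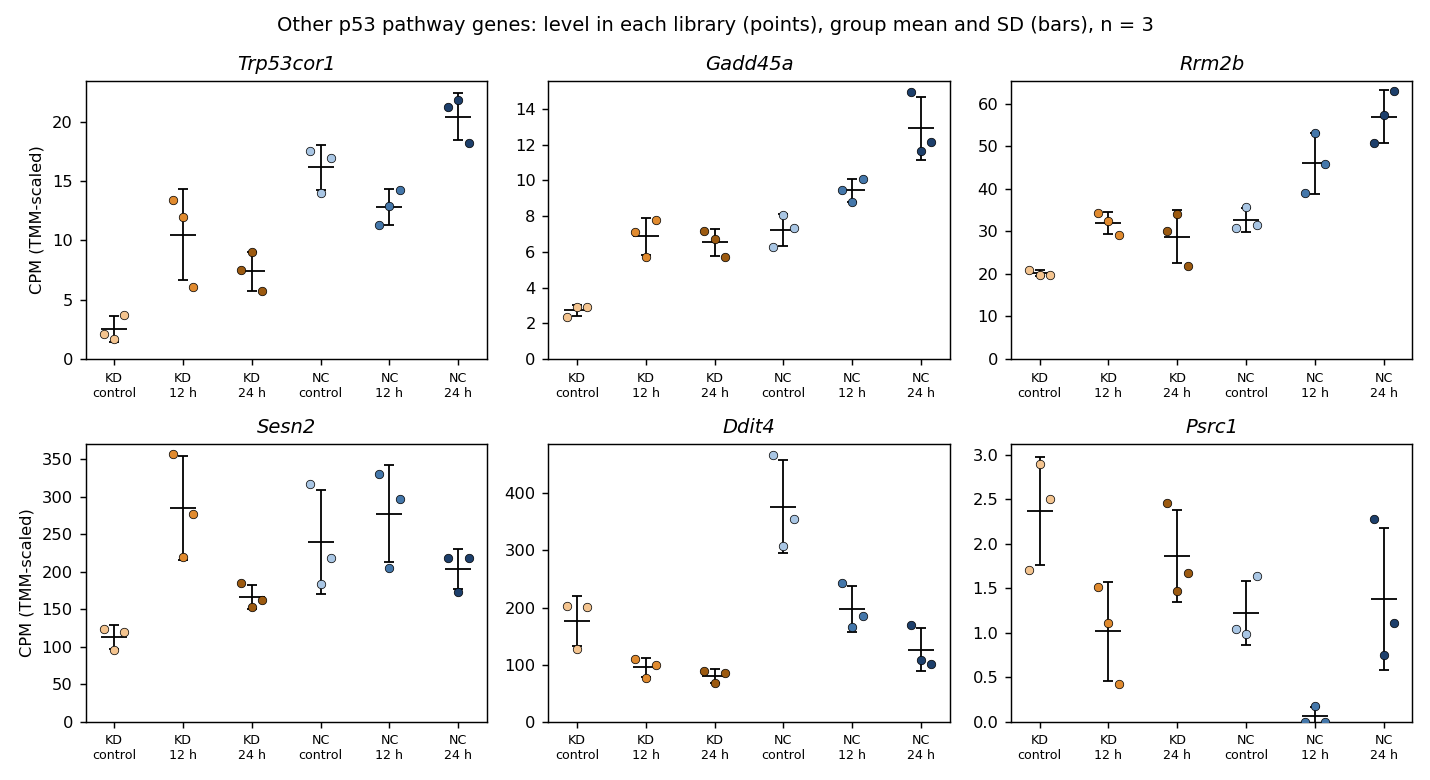
Level of 6 other p53 pathway genes in each of the 18 libraries (points; CPM, TMM-scaled, linear axes starting at 0), with group mean and SD, KD groups on the left and NC groups on the right. Trp53cor1 lies at 1.68 to 3.75 CPM in KD control libraries, below its other 15 libraries, and Psrc1 lies at or near 0 in NC cells at 12 h.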

How the data were processed

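RNA of 18 libraries of BV2 cells was sequenced, 3 for each of 6 groups, which were read from the titles of the samples with their numbers. The tools named by the authors, per the submitters' processing notes, are HISAT2 2.2.0, featureCounts, bcl2fastq and DESeq2, with the build GRCm38. Neither the annotation release nor the strand setting is stated in the sources used here. The authors deposited whole-number counts per gene, not normalized, and a TPM table, which equalled the deposited counts over the deposited gene length, rescaled, within 2.15e-07 in relative terms. CT010467.2 holds 36.2 to 56.1% of the deposited TPM, so the TPM of other genes depends on it, and counts were tested.

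Counts were tested with edgeR 4.0.16 (R 4.3.3, limma 3.58.1): TMM factors, filterByExpr with minimum count 10, 1 mean per group, robust quasi-likelihood fit of all 18 libraries, Benjamini-Hochberg over the 15996 genes tested, threshold 0.05. The genes tested held 99.7% of counts, and the median biological coefficient of variation was 0.221. The 15 comparisons were times within and over lines, lines at each time and over times, and both interactions. Libraries of 1 group differed from each other by more than sampling noise (chi-square 4.50 to 17.3 per degree of freedom), and all 18 were kept as samples. The procedure was tested on simulated counts.

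Members and lists were chosen with earlier results of these data known. All 10 members are named, and of each other list up to 4 genes with the lowest adjusted p, plus the 5 genes of at least 5 CPM on average most like Cdkn1a and Mdm2. Apaf1 was named after its value was seen. Alternatives tried were no filter, RLE or upper-quartile factors, a filter of 5 CPM in 3 libraries, DESeq2 1.42.0, compared groups only, a replicate block, the largest transcript left out, limma on log2(TPM + 1) or log2(TPM + 0.1), each library left out in turn, and, chosen after seeing the data, the 6 libraries numbered 2 left out. Deviations of same-numbered libraries from their group means correlated above 0.1 in every pair for the 6 comparisons of times within a line (lowest 0.108). The same held for the lines at 12 h (lowest 0.200). These comparisons were taken as paired by number from the data, since the meaning of a number is not stated. Elsewhere the lowest correlation was 0.070 to 0.095, still positive, so the cut at 0.1 is a choice. The main fit used no block in any comparison, so its p-values leave this pairing out, also where it was taken to hold.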

Additional observations from a re-analysis of the deposited data

Results flagged for a closer look

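Trp53cor1 changed differently with oxyhemoglobin in the 2 lines. At 12 h against control its log2 fold change was 2.08 ± 0.33 in KD cells (adjusted p = 6.4e-05) and −0.33 ± 0.27 in NC cells (adjusted p = 0.52), and the difference itself, the interaction of line with 12 h, was 2.41 ± 0.42 (edgeR's quasi-likelihood test, adjusted p = 0.019). The interaction at 24 h was 1.24 ± 0.43 (adjusted p = 0.70). The 12 h interaction did not pass without KD 12 h library 1 or 2, KD control library 1 or 2 or NC 12 h library 1 (2.17 to 2.80 over all 18 fits, adjusted p up to 0.083), without the 6 libraries numbered 2 (2.15, adjusted p = 0.296), with the compared groups alone (adjusted p = 0.0758), or on log2 TPM (1.22 to 2.23, adjusted p of 0.135 to 0.265). Trp53cor1 shares 44.1% of its exon bases with genes on the opposite strand, and their part in this result was not tested.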

How the results depend on the processing

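The counts of members called at 24 h against 12 h in the KD line, at 12 h and at 24 h against control over both lines, and in the 24 h interaction stayed within 1.5 times under all alternatives run. The members behind a count could differ. At 24 h against control over both lines DESeq2 also called 4, but with Trp53, which was lower, and without Zmat3. In the NC line at 12 h the count was 3, and 1 with the compared groups only. In paired comparisons the replicate block gave 3 for NC 24 h (main 1), 5 for KD 24 h (main 2), 2 for NC 24 h against 12 h and 1 for KD against NC at 12 h (main 0 each). Elsewhere library numbers were not taken as pairs, and the block gave 2 at 24 h against 12 h over both lines, 2 for KD against NC at control, 2 at 24 h and 3 over the 3 times (main 1 each), and 1 for the 12 h interaction (main 0). Other tools and filters gave 1 for NC 24 h against 12 h (DESeq2, and limma on log2 TPM in all 3 settings), 2 for 24 h against 12 h over both lines (limma), 0 for KD against NC at control (limma), and 0 at 24 h (limma, compared groups only, and without the 6 libraries numbered 2). Over the fits without 1 library the counts were 1 to 3 for NC 12 h, 1 to 2 for NC 24 h, 0 to 1 for NC 24 h against 12 h, 2 to 4 for KD 12 h and 0 to 1 for KD against NC at 24 h. No member's called change turned its sign. On log2(TPM + 1) the median change of all genes at 24 h against 12 h over both lines was −0.16, and the share of higher calls was 23% there, against 59.6% in counts. At 24 h against control over both lines, Mdm2 was at 0.41 on that scale (adjusted p = 0.108) and Ccng1 at 0.36 (adjusted p = 0.152). Over all genes, the block raised the calls of the comparisons, for example to 4600 in KD 12 h (main 2558), 3948 in NC 12 h (main 1958), 1496 for KD against NC at control (main 330) and 331 in the 12 h interaction (main 12). The compared groups alone lowered them, to 748 in NC 24 h (main 1211) and 119 for KD against NC at 24 h (main 223), where leaving out KD 24 h library 3 gave 41. The cause of the moved counts was not tested. Depth limits Cdkn1a and Zmat3, at a few CPM, and leaves Trp53inp1 and Phlda3 untested.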

Other observations

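Paralogs of the members were also counted, and Sesn2, Plk1, Plk3, Plk4, Ccng2 and Mdm4 among them stand in lists counted above too. Of 12 tested, 6 were higher and 2 lower at 12 h over both lines, and 4 higher and 1 lower at 24 h, by edgeR's quasi-likelihood test. Of all genes tested, 13% were higher and 12.3% lower at 12 h, and 9.99% higher and 7.76% lower at 24 h. Phlda1, the relative of Phlda3, had 2.78, 2.13 and 3.54 CPM in KD control libraries, 47.7, 28.1 and 39.1 CPM at 12 h, and 40.8, 34.7 and 26.7 CPM at 24 h. In NC cells it had 5.01, 4.45 and 3.47 CPM in control libraries, 48.4, 45.5 and 40.8 CPM at 12 h, and 33.2, 35.0 and 57.6 CPM at 24 h. Its averaged log2 fold change was 3.57 ± 0.20 at 12 h (adjusted p = 6.7e-12), while Phlda3 had 1 count in all. An opposite-strand gene shares 33% of the exon bases of Phlda1. Trp53inp2, the relative of Trp53inp1, was at 0.77 ± 0.12 at 24 h (adjusted p = 4.3e-05), and Btg3, a relative of Btg2, at 1.53 ± 0.24 (adjusted p = 6.7e-05). An opposite-strand gene shares 17.3% of the exon bases of Btg3.

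The 5 genes whose 6 group means were most like those of Cdkn1a, among 10812 genes of at least 5 CPM, were Klhdc1, Gm2423, Aldh1l2, Gpt2 and Rbm38, with root mean square differences of 0.15 to 0.19 on the log2 scale. Those most like Mdm2 were Rassf8, Riok3, Gm43728, Acta2 and Lrif1, at 0.05 to 0.09. The groups share their libraries across genes, and no test was made of this likeness. Cdkn1a had 294 counts in all, and its changes against control within lines had SEs of 0.50 to 0.58. Those SEs exceed the differences of 0.15 to 0.19, so which genes are most like Cdkn1a is uncertain. The same holds for Mdm2, whose changes had SEs of 0.201 to 0.204 against differences of 0.05 to 0.09.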
